A study of Arabidopsis thaliana with 87 samples.

Results

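The small RNAs described here are the reads of 25, 26, 27 and 28 nt that matched RUBY, a reporter transgene that turns plant tissue red by driving synthesis of betalain pigment. They were chosen by length alone, on both strands, which gave 8 classes of length and strand out of the 22 that span 18 to 28 nt. Over all 87 libraries these classes held 264211 of 20686831 RUBY reads (1.28%), while 21 nt reads alone held 76.2% and 24 nt reads 2.20%. In single libraries the share of 25 to 28 nt reads ran from 0.196% to 35.4%.

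Plants silence transgenes through double-stranded RNA, which DICER-LIKE enzymes cut into small RNAs of fixed sizes. In Arabidopsis DCL1 makes most microRNAs, mainly of 21 nt, DCL4 makes 21 nt and DCL2 22 nt small interfering RNAs that guide cleavage of matching transcripts, and DCL3 makes 24 nt small interfering RNAs that guide DNA methylation. Reads of 25 to 28 nt are longer than the main products of these enzymes, and a library of short RNA also takes in pieces of transcripts that were broken in other ways. Such pieces would carry the strand of their transcript, whereas cutting of a duplex yields both strands.

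All plants were 4-week-old Arabidopsis thaliana kept in 18 h light and 6 h dark at 22 °C, and leaves were sampled by the colour that the labels give. With the ZmUBQ promoter, in the wild-type background Col-0, fully green leaves gave 7 libraries, fully red leaves 7 and always red plants 4, from 3 transgenic events. With the 35S promoter in Col-0 always green plants gave 2 libraries, fully green leaves 9, the green portions (green parts) and red portions (red parts) of leaves 13 each, fully red leaves 13 and always red plants 11, from 11 events. Another 8 always red libraries with 35S came from 2 events in dcl1234, which is mutated in all 4 DICER-LIKE genes. Always green plants came from 1 event, MK017. Several libraries came from the same event, so a p-value measures the spread between these libraries and not between independent insertions. A leaf library pools many cells, so fewer cells with these RNAs and less RNA per cell cannot be told apart.

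Mapped reads ran from 0.905 to 31.4 M per library with a median of 15.4 M (1 M is 1000000 reads), and 71 to 28191 reads of 25 to 28 nt were counted per library. Levels are reads per 1000000 mapped reads (RPM), a floor of 3 reads stood at 0.0955 to 3.32 RPM, and intervals and floors cover counting error only, since PCR copies are not independent molecules. As a check of the dcl1234 label, 21 nt reads on the minus strand averaged 6.19 RPM in dcl1234 and 115 RPM in Col-0. Differences between groups are means of log2(RPM + 1), a scale that understates changes of low classes, and a class was called at a Benjamini-Hochberg adjusted p under 0.05 in a two-sided permutation test over libraries, adjusted over 242 tests of all 22 classes in 11 comparisons. Since the sources used here do not say which strand matches the RUBY mRNA, they are called plus and minus as in the files.

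The plus strand carried 25 to 28 nt reads in every group, and its level spanned a range that was narrow beside that of the minus strand. With ZmUBQ, the summed plus level averaged 38.9 ± 29.8 RPM in fully green leaves (SD, n = 7), 28.5 ± 10.0 RPM in fully red leaves (n = 7) and 25.98 ± 11.2 RPM in always red plants (n = 4). With 35S it averaged 836 ± 274 RPM in always green plants (n = 2), 320 ± 208 RPM in fully green leaves (n = 9) and 173 ± 148 RPM in green parts (n = 13). Red parts, at 86.1 ± 35.8 RPM, and fully red leaves, at 98.0 ± 38.9 RPM (n = 13 each), lay within each other's spread. In the always red 35S plants the plus sum was 126 ± 13.1 RPM in dcl1234 (n = 8) and 71.8 ± 34.2 RPM in Col-0 (n = 11).

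The minus strand separated the colours far more widely. Its summed level averaged 30.6 ± 23.7 RPM in ZmUBQ fully green leaves, 2.78 ± 1.13 RPM in ZmUBQ fully red leaves and 3.55 ± 1.76 RPM in ZmUBQ always red plants. With 35S it averaged 385 ± 87.4 RPM in always green plants, 202 ± 91.7 RPM in fully green leaves and 130 ± 86.0 RPM in green parts. Red parts held 25.02 ± 26.3 RPM and fully red leaves 3.91 ± 3.59 RPM. Always red 35S plants held 4.18 ± 2.31 RPM in dcl1234 and 1.04 ± 0.268 RPM in Col-0, the lowest mean of the 10 groups. Many of the low values rest on few reads: of the single minus classes, 8 of 28 in ZmUBQ fully red, 2 of 16 in ZmUBQ always red, 2 of 52 in red parts, 7 of 52 in 35S fully red and 7 of 44 in 35S always red libraries held fewer than 3 reads.

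These lengths were present in dcl1234 and were more abundant there than in Col-0. In dcl1234 the 25 nt plus class ran from 28.6 RPM, with a median of 33.8 RPM, to 38.3 RPM, against 6.06 RPM, a median of 15.6 RPM and 33.0 RPM in Col-0 always red plants. The 28 nt plus class ran from 25.8 RPM, with a median of 30.7 RPM, to 35.2 RPM in dcl1234, against 4.78 RPM, a median of 14.0 RPM and 33.2 RPM in Col-0. The dcl1234 libraries sat in the upper part of the Col-0 range for both classes, with 5 of 8 above all Col-0 libraries at 25 nt and 2 of 8 at 28 nt. The differences in log2 were 0.95 ± 0.21 at 25 nt (SE, adjusted p = 0.0026, exact permutation test) and 0.96 ± 0.22 at 28 nt (adjusted p = 0.00279, same exact test).

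On the minus strand the dcl1234 libraries were separate from Col-0 at 25 nt. The 25 nt minus class ran from 0.666 RPM, with a median of 1.37 RPM, to 2.87 RPM in dcl1234, against 0.145 RPM, a median of 0.368 RPM and 0.568 RPM in Col-0. All 8 dcl1234 libraries lay above all 11 Col-0 libraries, and the difference was 0.87 ± 0.16 (adjusted p = 0.000114, exact permutation test). At 28 nt the overlap was larger: the class ran from 0.268 RPM, with a median of 0.478 RPM, to 1.72 RPM in dcl1234, against 0.0638 RPM, a median of 0.214 RPM and 0.405 RPM in Col-0, and the difference was 0.35 ± 0.13 (adjusted p = 0.0026, same exact test). All 8 classes of 25 to 28 nt were called and all were higher in dcl1234, beside 95.5% of all 22 classes called in either direction and 59.1% called as higher. Their median difference was 0.87, against 0.53 over all 22 classes, and the other direction was that of 21 nt, which differed by -1.29 ± 0.18 on the plus strand and by -3.93 ± 0.19 on the minus strand. The 24 nt classes differed by 0.85 ± 0.21 on the plus strand and by -1.07 ± 0.15 on the minus strand. With 1 mean per event, 2 events against 6, none of the 8 classes was called.

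The 2 dcl1234 events were alike on the plus strand and less so on the minus strand. The plus sum averaged 127 RPM in MK072 (3 libraries, 115 to 134 RPM) and 126 RPM in MK073 (5 libraries, 107 to 146 RPM). The minus sum ran from 2.00 to 2.69 RPM in MK072 and from 2.69 to 8.74 RPM in MK073. The minus strand held 7.11% of the 25 to 28 nt reads in MK073 number 4 (122 of 1715 reads, 95% Wilson interval 5.99 to 8.43%) and 1.49% in MK072 number 2 (30 of 2017 reads, interval 1.04 to 2.12%), so these libraries differed beyond counting error.

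In dcl1234 the 25 to 28 nt reads made up a large share of what RUBY reads were left. They held 32.0 to 35.4% of all RUBY reads there, with a mean of 33.7% ± 1.22 (n = 8), while 4 of 11 lengths would hold 36.4% if all lengths were equally frequent. In Col-0 always red plants with 35S the share was 15.5% ± 2.97 (n = 11), and all 8 dcl1234 libraries lay above the highest Col-0 value of 22.1%. The share was 11.8% ± 4.58 in ZmUBQ fully red leaves, 12.5% ± 3.10 in ZmUBQ always red plants and 12.3% ± 7.30 in 35S fully red leaves. Green leaves had the smallest mean shares, 0.611% ± 0.088 in ZmUBQ fully green, 1.31% ± 0.135 in 35S always green, 0.901% ± 0.139 in 35S fully green and 0.846% ± 0.237 in 35S green parts. In 35S red parts the share of single libraries ran from 0.196% to 7.76%, which overlapped with the green groups. Such a share depends on the other lengths as well as on 25 to 28 nt.

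In fully green 35S leaves all 8 classes were higher than in fully red ones. The 25 nt plus class ran from 32.8 RPM, with a median of 118 RPM, to 259 RPM in fully green leaves, against 13.4 RPM, a median of 23.96 RPM and 43.7 RPM in fully red leaves. On the minus strand 25 nt reads ran from 27.1 RPM, with a median of 82.8 RPM, to 132 RPM in fully green leaves, against 0 RPM, a median of 0.536 RPM and 3.52 RPM in fully red leaves. The green and red ranges overlapped by 1 green library on the plus strand and not at all on the minus strand. The differences were 1.89 ± 0.36 for 25 nt plus (adjusted p = 0.000102, exact permutation test) and 5.10 ± 0.32 for 25 nt minus (adjusted p = 2.7e-05, same exact test).

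The other 3 lengths followed the same split by strand. The plus differences were 1.24 ± 0.37 at 26 nt, 1.19 ± 0.39 at 27 nt and 1.5 ± 0.38 at 28 nt, with adjusted p from 0.0016 to 0.0057 in the exact permutation test, and 5 of 9 fully green libraries lay above all fully red ones. The minus differences were 4.35 ± 0.30, 4.46 ± 0.30 and 4.66 ± 0.27 at 26, 27 and 28 nt, and all 9 fully green libraries lay above all 13 fully red ones. All 22 classes of 18 to 28 nt were called in this comparison (100%), with a median difference of 4.56, against 3.12 for the 8 classes of 25 to 28 nt. For scale, 21 nt differed by 6.18 ± 0.42 on the plus and 6.53 ± 0.51 on the minus strand.

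Always green plants of MK017 held the highest mean levels of the series at 25 to 28 nt. At 25 nt the plus class stood at 330 and 206 RPM in the always green libraries, against 6.06 RPM, a median of 15.6 RPM and 33.0 RPM in always red 35S plants. At 25 nt the minus class stood at 155 and 104 RPM in always green libraries, against 0.145 RPM, a median of 0.368 RPM and 0.568 RPM in always red ones. The differences were 3.88 ± 0.39 on the plus strand and 6.54 ± 0.29 on the minus strand. All 8 classes were higher in both always green libraries than in all 11 always red ones and were called (adjusted p = 0.0177 each, exact permutation test), as were all 22 classes (100%). The smallest p that 2 against 11 libraries allow is 0.0128. With either always green library left out, the differences of the 8 classes ran from 3.01 to 6.83. That setting and 1 mean per event each leave 1 always green value, which allows no p under 0.05 in the exact test. The 11 always red libraries are also the Col-0 side of the dcl1234 comparison and the 35S side of others below, so these comparisons share them.

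Within leaves of mixed colour, green parts were set against red parts. On the minus strand 25 nt reads ran from 8.59 RPM, with a median of 51.8 RPM, to 109 RPM in green parts, against 0.484 RPM, a median of 5.11 RPM and 51.9 RPM in red parts. On the plus strand 25 nt reads ran from 12.7 RPM, with a median of 43.1 RPM, to 182 RPM in green parts, against 5.16 RPM, a median of 26.7 RPM and 49.0 RPM in red parts. The ranges overlapped on both strands, with 6 of 13 green parts above all red parts in each class. The 4 minus classes were higher in green parts by 2.35 to 2.47, with SE of 0.42 to 0.52 and adjusted p from 0.000167 to 0.000703 in the permutation test. On the plus strand 25 nt was called (0.91 ± 0.40, adjusted p = 0.0423, permutation test), and 26, 27 and 28 nt, at 0.53 ± 0.40, 0.65 ± 0.45 and 0.84 ± 0.52, were not. The 5 classes called stand beside 86.4% of all 22 classes, with a median difference of 1.63 for the 8 classes and 2.36 for all. The 25 nt plus call was lost on ranks and when libraries under 8 M were left out (adjusted p = 0.0798 and 0.0701, permutation tests).

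Shallow libraries of leaf parts stood apart in these lengths. The 4 with fewer than 8 M mapped reads were green parts of MK041 number 1 and red parts of MK016 number 5, MK025 number 1 and MK044 number 3, and their 25 to 28 nt reads made up 0.238%, 0.196%, 0.397% and 0.54% of RUBY reads. The lowest share among the other green parts was 0.686% and among the other red parts 1.09%. In these 4 libraries the 28 nt plus level was also small beside 25 nt, at ratios of 0.114, 0.121, 0.262 and 0.0625, against medians of 0.659 in all green parts and 0.76 in all red parts. The part of depth or library making in this was not tested.

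Red parts were not told apart from fully red leaves on the plus strand and lay above them on the minus strand. The 28 nt minus class ran from 0.161 RPM, with a median of 3.84 RPM, to 19.9 RPM in red parts, against 0 RPM, a median of 0.423 RPM and 2.12 RPM in fully red leaves. The 25 nt minus class of red parts, given above, compares with 0 RPM, a median of 0.536 RPM and 3.52 RPM in fully red leaves. In each of these 2 classes 8 of 13 red parts lay above all fully red leaves, and the rest overlapped with them. The 4 minus classes were higher in red parts by 1.17 to 1.89 and were called (adjusted p from 0.00139 to 0.00422, permutation test), beside 68.2% of all 22 classes. On the plus strand the differences were -0.06 ± 0.27 at 25 nt, -0.28 ± 0.29 at 26 nt, -0.50 ± 0.34 at 27 nt and -0.44 ± 0.42 at 28 nt, and none passed the test. At 25 nt the sign turned with edgeR (0.04) and without libraries under 8 M (0.03).

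Fully red leaves were compared with always red plants, both with 35S. The 26 nt minus class ran from 0 RPM, with a median of 0.544 RPM, to 2.73 RPM in fully red leaves, against 0.0743 RPM, a median of 0.136 RPM and 0.318 RPM in always red plants. The lowest fully red library, MK044 number 3, had 0.905 M mapped reads and 0 minus reads among 88 of 25 to 28 nt, which allows a share of up to 3.41%. In 8 of 13 fully red libraries the 26 nt minus level lay above all always red ones, and the difference was 0.59 ± 0.18 (adjusted p = 0.00907, permutation test). All 4 minus classes and 25 nt plus were called as higher in fully red leaves, 5 of 8 classes beside 86.4% of all 22. The minus differences ran from 0.48 to 0.59 and the 25 nt plus difference was 0.54 ± 0.25 (adjusted p = 0.0424, permutation test). All 5 calls were lost with 1 mean per event, 8 events against 6. The 25 nt plus call was lost with edgeR (adjusted p = 0.08), without MK044 number 3 (adjusted p = 0.0636, permutation test) and with libraries not separated from each other averaged (adjusted p = 0.0653, permutation test). The 25 nt minus call (0.53 ± 0.20) was lost with a pseudocount of 0.1 RPM (adjusted p = 0.0808) and on ranks (adjusted p = 0.0888, permutation tests).

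With the ZmUBQ promoter the colour difference was on the minus strand. There 25 nt reads ran from 2.60 RPM, with a median of 9.07 RPM, to 30.01 RPM in fully green leaves, against 1.09 RPM, a median of 1.45 RPM and 3.93 RPM in fully red leaves. The 26 nt minus class ran from 0.868 RPM, with a median of 5.61 RPM, to 13.4 RPM in fully green leaves, against 0 RPM, a median of 0.326 RPM and 0.445 RPM in fully red leaves. All 7 green libraries lay above all red ones at 26, 27 and 28 nt, and 6 of 7 did so at 25 nt. The minus differences were 1.94 ± 0.46, 2.20 ± 0.43, 2.00 ± 0.44 and 2.12 ± 0.45 at 25, 26, 27 and 28 nt (adjusted p from 0.0016 to 0.00368, exact permutation test). With 1 mean per event none could be called, since 3 events on each side allow no p under 0.05 in the exact test.

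No plus class passed the test with ZmUBQ. Plus reads of 25 nt ran from 3.06 RPM, with a median of 11.1 RPM, to 35.8 RPM in fully green leaves, against 4.91 RPM, a median of 6.39 RPM and 10.8 RPM in fully red leaves. The 27 nt plus class ran from 1.53 RPM, with a median of 4.47 RPM, to 18.6 RPM in fully green leaves, against 4.29 RPM, a median of 5.89 RPM and 12.1 RPM in fully red leaves. Green libraries were found both above and below the red range in each of these classes. The plus differences were 0.60 ± 0.46, 0.02 ± 0.40, -0.27 ± 0.43 and 0.04 ± 0.44 at 25, 26, 27 and 28 nt, which leaves room for differences in either direction. The 4 classes called stand beside 81.8% of all 22, with a median difference of 1.27 for the 8 classes and 2.16 for all. Of the green libraries, those of MK055 were highest, with a plus sum of 46.8 to 92.4 RPM, while MK054 and MK056 together ran from 8.53 to 27.2 RPM.

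ZmUBQ fully red leaves and always red plants were not told apart at any of these lengths. On the plus strand 25 nt reads ran from 4.91 RPM, with a median of 6.39 RPM, to 10.8 RPM in fully red leaves, against 4.21, 4.34, 8.43 and 9.33 RPM in always red plants. On the minus strand 25 nt reads ran from 1.09 RPM, with a median of 1.45 RPM, to 3.93 RPM in fully red leaves, against 2.21, 0.993, 3.20 and 3.51 RPM in always red plants. The ranges overlapped in both classes. Of the 8 classes 0 were called, beside 0% of all 22, with 0 at an unadjusted p under 0.05 in the exact permutation test and 0 called by edgeR. Leaving out MK054 number 2 or MK056 number 2 of the always red plants, or MK054 number 3 or MK055 number 1 of the fully red leaves, gave 1 called class.

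The share of reads on the minus strand measures strand bias independently of depth. Over 25 to 28 nt together it averaged 42.7% ± 4.57 in ZmUBQ fully green leaves, 10.0% ± 5.76 in ZmUBQ fully red leaves and 12.2% ± 3.75 in ZmUBQ always red plants. With 35S it averaged 31.9% ± 2.28 in always green plants, 41.3% ± 6.94 in fully green leaves, 44.5% ± 5.75 in green parts, 19.3% ± 13.1 in red parts and 4.60% ± 5.03 in fully red leaves. Always red 35S plants held 3.26% ± 1.93 on the minus strand in dcl1234 and 1.61% ± 0.51 in Col-0. Mean minus shares were thus at least 31.9% in the green groups and at most 19.3% in the red ones.

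At each of the 4 lengths the minus share was higher in green than in red tissue in all 4 colour comparisons. Between fully green and fully red 35S leaves it differed by 36.3 ± 2.51, 34.4 ± 2.63, 37.4 ± 2.86 and 37.9 ± 3.12 percentage points at 25, 26, 27 and 28 nt, and each of the 9 green libraries exceeded every red one (90.9% of all 11 lengths called). Between green and red parts it differed by 23.4 to 27.8 points with overlap (81.8% of all lengths called). Between always green and always red plants it differed by 28.2 to 31.2 points (90.9% of lengths), and between ZmUBQ fully green and fully red leaves by 25.1 to 36.4 points, where each of the 7 green libraries exceeded every red one (90.9%). Adjusted p ran from 2.76e-05 to 0.0147 in the permutation tests, adjusted over 55 tests. With 1 mean per event all 4 lengths remained called in fully green against fully red 35S leaves and in leaf parts. The always green and ZmUBQ comparisons had too few events for any call in that test. The difference at 21 nt was 5.61 ± 3.45 points between fully green and fully red 35S leaves (adjusted p = 0.153, exact permutation test) and 8.73 ± 1.60 points with ZmUBQ (adjusted p = 0.000916, same exact test).

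Red parts ranged widely in strand bias. The minus share of 25 to 28 nt ran from 4.92% in MK043 number 2 to 47.9% in MK016 number 5, with a median of 12.7%. The 4 red parts above 30% were MK025 number 1, MK040 number 2, MK040 number 1 and MK016 number 5, at 30.8%, 30.8%, 35.6% and 47.9%. Their RUBY reads of all lengths summed to 25783, 9602, 21388 and 79188 RPM, the highest 4 of the group, against 1399 to 5581 RPM in the other red parts. Of these 4, MK025 number 1 and MK016 number 5 are shallow libraries under 8 M mapped reads, which stood apart in these lengths as described above. Fully red leaves spanned 0 to 16.4%, with MK040 number 2 and MK016 number 5 highest at 16.4% and 12.6%.

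In dcl1234 the mean minus share at 25, 26 and 27 nt was slightly above that of Col-0. The 2 events were not alike in this. Over 25 to 28 nt together the share ran from 1.49 to 2.02% in MK072, within the Col-0 range of 0.994 to 2.33%. In MK073 it ran from 2.00 to 7.11%. The share at 25 nt ran from 1.76%, with a median of 3.65%, to 8.68% in dcl1234, against 0.733%, a median of 2.29% and 5.00% in Col-0, and 3 of 8 dcl1234 libraries lay above all Col-0 ones. The differences were 2.29 ± 0.93 points at 25 nt, 0.89 ± 0.43 at 26 nt and 2.73 ± 1.15 at 27 nt (adjusted p = 0.0144, 0.0382 and 0.00964, exact permutation test), and 0.55 ± 0.59 at 28 nt (adjusted p = 0.376, same exact test). These calls were lost with 1 mean per event. The 3 calls, all higher, stand beside 90.9% of lengths called in either direction and 27.3% called as higher. At 21 nt the minus share averaged 14.2% ± 1.71 in dcl1234 and 53.7% ± 1.70 in Col-0, a difference of -39.5 ± 0.79 points.

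On the plus strand, 25 to 28 nt reads were fewer beside 21 nt reads in green than in fully or always red tissue, while red parts overlapped with green parts. There were 1.70 ± 0.306 plus reads of 25 to 28 nt per 100 plus reads of 21 nt in fully green 35S leaves (n = 9), against 61.5 ± 48.0 in fully red leaves (n = 13). With ZmUBQ there were 1.06 ± 0.177 in fully green and 63.5 ± 31.0 in fully red leaves (n = 7 each), and always green 35S plants had 2.44 and 2.71 against 71.2 ± 20.6 in always red ones. The red values exceeded all green ones in these 3 comparisons. Green parts ran from 0.317, with a median of 1.72, to 2.37, against 0.276, a median of 6.66 and 29.4 in red parts. The lowest 4 red parts, at 0.276, 0.745, 1.28 and 2.45, were MK016 number 5, MK025 number 1, MK044 number 3 and MK040 number 1. In dcl1234 there were 335 ± 18.1 plus reads per 100 of 21 nt, so that the 4 lengths together outnumbered 21 nt. Each length alone averaged slightly below 21 nt there, at log2 ratios of -0.29 to -0.16.

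The same ratio on the minus strand spanned a narrower range in 35S plants. There were 0.779 ± 0.089 minus reads of 25 to 28 nt per 100 minus reads of 21 nt in fully green leaves, 0.776 ± 0.197 in green parts, 0.733 ± 0.326 in red parts, 0.883 ± 0.317 in fully red leaves and 0.946 ± 0.233 in Col-0 always red plants, and 1.02 and 1.04 in the 2 always green libraries. The Col-0 35S means thus ran from 0.733 to 1.03, although the minus sum of 25 to 28 nt averaged 202 RPM in fully green leaves and 1.04 RPM in always red plants. ZmUBQ leaves had 0.555 ± 0.109 when fully green and 6.72 ± 5.46 when fully red, and dcl1234 had 68.2 ± 37.0.

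The tests of these ratios, on log2 values with 1 RPM added to both classes, were adjusted over 100 tests. All 8 classes were lower relative to 21 nt in fully green than in fully red 35S leaves, beside 95% of all 20 classes; the plus differences ran from -4.99 to -4.29 and the minus differences from -2.18 to -1.43. With read counts and 0.5 reads added in place of RPM, the 4 minus classes were no longer called, at -0.83 to -0.32. All 8 classes were lower in always green than in always red 35S plants (75% of all classes), and there too the 4 minus classes were not called with read counts, at -0.04 to 0.44, or with 0.1 RPM added. All 8 were lower in fully green than in fully red ZmUBQ leaves (100%), with plus differences of -6.02 to -5.15 and minus differences of -4.31 to -4.06. In fully red ZmUBQ leaves 26, 27 and 28 nt minus averaged under 1 RPM, so the added 1 RPM raised their ratios there and widened these differences. By edgeR these 3 classes were higher in fully green leaves by 4.45, 4.53 and 4.63 and 25 nt minus by 2.66, beside 6.37 for 21 nt minus. In dcl1234 all 8 were higher than in Col-0 (100%), by 2.15 to 2.25 on the plus strand and 4.28 to 4.80 on the minus strand, and each dcl1234 library lay above each Col-0 library. Adjusted p in these comparisons ran from 2.87e-05 to 0.0164 (permutation tests). With 1 mean per event all 8 were called in fully green against fully red 35S leaves, and none in dcl1234 against Col-0. The dcl1234, always green and ZmUBQ comparisons had too few events for any call in that test after adjustment.

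Between green and red parts the 4 plus classes were lower relative to 21 nt, with log2 differences of -2.01 to -1.64 (adjusted p from 0.00431 to 0.0421, permutation test), beside 40% of all classes called and 35% called as lower. The minus classes, at -0.23 to -0.10, were not called. Without the 4 shallow leaf part libraries all 8 were called as lower, with minus differences of -0.62 to -0.37, so the minus result depends on them. The 28 nt plus call was lost with 0.1 RPM or 0.5 reads added (adjusted p = 0.0898 and 0.0933, permutation tests), and all 4 plus calls with 1 mean per event.

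Against 24 nt reads, the neighbouring length, plus reads of 25 to 28 nt were fewer in fully green than in fully red 35S leaves, at 54.8 ± 7.13 and 291 ± 77.4 per 100 plus reads of 24 nt, and stood at 355 ± 20.02 in dcl1234 and 336 ± 32.2 in Col-0 always red plants. On the other strand, per 100 minus reads of 24 nt there were 10.8 ± 0.798 minus reads of 25 nt in fully green, 12.6 ± 1.79 in green parts, 15.3 ± 5.43 in red parts, 11.0 ± 2.29 in fully red (n = 12, since MK044 number 3 had no 24 nt minus read) and 13.4 ± 5.57 in Col-0 always red libraries with 35S. The ZmUBQ groups had 9.67 ± 1.58 in fully green, 10.4 ± 2.10 in fully red and 10.1 ± 2.86 in always red libraries, while dcl1234 had 187 ± 67.7. With 12.1 ± 0.398 in always green libraries, the means of all 9 Col-0 groups ran from 9.67 to 15.3.

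Flatness over length was read from the plus strand, where counts were large enough. In dcl1234 the mean levels were 33.6, 30.9, 31.2 and 30.7 RPM at 25, 26, 27 and 28 nt, and in Col-0 always red plants 18.5, 17.9, 18.3 and 17.0 RPM. Across 25 to 28 nt the highest mean level was thus 1.09 times the lowest in both. Across all 11 lengths the highest plus mean was 1.23 times the lowest in dcl1234, 5.83 times in Col-0 always red plants, 12.8 times in 35S fully red leaves and 265 times in 35S fully green leaves. The dcl1234 plus profile was therefore nearly level from 18 to 28 nt.

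In fully green leaves 25 to 28 nt were less level than in fully red ones, with 25 nt highest. The plus means were 115, 67.2, 67.5 and 69.8 RPM at 25, 26, 27 and 28 nt in fully green 35S leaves, against 26.4, 24.5, 25.1 and 22.0 RPM in fully red ones. With ZmUBQ they were 14.7, 9.09, 7.03 and 8.00 RPM in fully green leaves, against 7.24, 7.69, 7.08 and 6.50 RPM in fully red ones. The ratio of highest to lowest mean over 25 to 28 nt was 1.72 in fully green and 1.20 in fully red 35S leaves, and 2.10 in fully green and 1.18 in fully red ZmUBQ leaves.

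The step between neighbouring lengths, as log2 of the longer over the shorter with 1 RPM added to each, was compared between groups with adjustment over 100 tests. The step from 25 to 26 nt on the plus strand was lower in green than in red tissue in all 4 colour comparisons. It differed by -0.65 ± 0.06 between fully green and fully red 35S leaves (adjusted p = 6.7e-05, exact permutation test) and by -0.37 ± 0.14 between green and red parts (adjusted p = 0.0246, permutation test). Between always green and always red plants it differed by -0.51 ± 0.04 (adjusted p = 0.0246, exact permutation test), and with ZmUBQ by -0.57 ± 0.12 (adjusted p = 0.005, exact permutation test). With ZmUBQ the step averaged -0.51 in fully green and 0.06 in fully red leaves, where the level did not step down. The ZmUBQ call was lost with libraries of the same event and number paired (adjusted p = 0.0568, exact sign-flip test). Of the 6 steps within 25 to 28 nt, 3 were called between fully green and fully red 35S leaves (65% of all 20 steps), 1 between green and red parts (40%), 2 between always green and always red plants (55%) and 2 with ZmUBQ (65%). The step from 27 to 28 nt plus was the third call in fully green against fully red 35S leaves, at 0.31 ± 0.14 (adjusted p = 0.0337), and the second with ZmUBQ, at 0.30 ± 0.14 (adjusted p = 0.0375, exact permutation tests). With 1 mean per event, 2 steps were called in fully green against fully red 35S leaves and 0 between green and red parts. The always green and ZmUBQ comparisons had too few events for any call in that test.

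In dcl1234 against Col-0 4 of the 6 steps were called, beside 75% of all 20 steps, and 3 of them were on the minus strand. On that strand the dcl1234 means were 1.61, 0.587, 1.39 and 0.602 RPM at 25, 26, 27 and 28 nt, against 0.374, 0.164, 0.271 and 0.228 RPM in Col-0, so 25 and 27 nt stood above 26 and 28 nt in both. The alternation was wider in dcl1234 on this scale, with step differences of -0.45 ± 0.10, 0.39 ± 0.17 and -0.47 ± 0.19 (adjusted p = 0.000809, 0.0317 and 0.0225, exact permutation test). With 0.1 RPM added these 3 were not called, at -0.46, 0.54 and -0.85. Nor was any step called with 1 mean per event, where 2 events against 6 were too few for any call after adjustment. On the plus strand the steps from 25 to 26 and 26 to 27 nt differed by -0.06 ± 0.05 and -0.03 ± 0.06 and were not called, and the step from 27 to 28 nt differed by 0.10 ± 0.03 (adjusted p = 0.0246, same exact test).

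ZmUBQ red tissue had a minus profile that was far from level. The mean minus levels were 2.07, 0.267, 0.218 and 0.226 RPM at 25, 26, 27 and 28 nt in fully red leaves and 2.48, 0.35, 0.223 and 0.504 RPM in always red plants. The 25 nt minus share averaged 23.0% ± 12.1 in fully red leaves and 26.97% ± 6.46 in always red plants, against group means of 2.38 to 8.25% at 26, 27 and 28 nt. The 25 nt class thus carried most of the minus reads of these lengths in both ZmUBQ red groups. In 35S fully red leaves the minus means were 1.22, 0.909, 0.93 and 0.854 RPM, with a smaller excess at 25 nt.

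Levels were also compared between promoters within a colour. The 35S and ZmUBQ libraries were counted on different target sequences and their files were laid out differently, so promoter, construct and counting cannot be told apart. In fully green leaves the 28 nt plus class ran from 1.43 RPM, with a median of 6.95 RPM, to 18.0 RPM with ZmUBQ, against 21.04 RPM, a median of 72.9 RPM and 152 RPM with 35S, with no overlap. All 8 classes were lower with ZmUBQ, with log2 differences of -3.10 to -2.59 (adjusted p from 0.000481 to 0.000703, exact permutation test), as were all 22 classes (100%). In fully red leaves the 25 nt plus class ran from 4.91 to 10.8 RPM with ZmUBQ, against 13.4 to 43.7 RPM with 35S, again with no overlap. The 4 plus classes and 27 nt minus were lower with ZmUBQ, 5 of 8 beside 77.3% of all 22 classes called and 68.2% called as lower. The plus differences ran from -1.70 to -1.51 (adjusted p from 0.000114 to 0.000927), and 27 nt minus differed by -0.55 ± 0.17 (adjusted p = 0.0325, exact permutation tests). The other 3 minus classes, at -0.49 to 0.57, were not called, but edgeR called 26 and 28 nt minus, at -1.78 and -1.97 (adjusted p = 0.0208 and 0.0081).

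In always red plants the 4 plus classes were lower and 25 and 26 nt minus higher with ZmUBQ. The 25 nt minus class stood at 2.21, 0.993, 3.20 and 3.51 RPM with ZmUBQ, against 0.145 RPM, a median of 0.368 RPM and 0.568 RPM with 35S, and all 4 ZmUBQ libraries lay above all 35S ones. The 25 nt plus class stood at 4.21, 4.34, 8.43 and 9.33 RPM with ZmUBQ, against 6.06 RPM, a median of 15.6 RPM and 33.0 RPM with 35S. The differences were 1.28 ± 0.27 on the minus strand (adjusted p = 0.00195) and -1.30 ± 0.33 on the plus strand (adjusted p = 0.00901, exact permutation tests). In total 6 of 8 classes were called, beside 72.7% of all 22, with 18.2% of all classes called as higher and 54.5% as lower. The 27 nt minus class differed by -0.07 ± 0.14 and 28 nt minus by 0.26 ± 0.18, and neither was called, but edgeR called 28 nt minus (1.06, adjusted p = 0.0219). None of the 8 was called with 1 mean per event. The 26 nt minus call (0.20 ± 0.11) was lost without MK054 number 2 or MK056 number 4 of the ZmUBQ plants, at adjusted p = 0.083 and 0.143, and the 27 nt plus call (-1.22 ± 0.44) without MK054 number 1, at adjusted p = 0.0665 (exact permutation tests).

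The colour effect itself, fully green minus fully red libraries with the same event and number in the labels, was compared between promoters over 7 ZmUBQ and 9 35S such sets. At 25 nt it averaged 0.60 with ZmUBQ and 1.94 with 35S on the plus strand, and 1.94 with ZmUBQ and 4.86 with 35S on the minus strand. At 28 nt it averaged 0.04 with ZmUBQ and 1.67 with 35S on the plus strand, and 2.12 with ZmUBQ and 4.48 with 35S on the minus strand. It was smaller with ZmUBQ in all 8 classes, with differences of -1.63 to -1.31 on the plus and -2.92 to -1.92 on the minus strand (adjusted p from 0.00192 to 0.0497, exact permutation test over 22 classes), beside 54.5% of all 22 classes. The 21 nt classes differed by -0.04 ± 0.80 on the plus and 0.13 ± 0.95 on the minus strand and were not called. With 0.1 RPM added, 3 of the 8 classes were called, and 26, 27 and 28 nt minus differed by less, at -1.42, -1.84 and -1.95. By edgeR over all libraries, fully green exceeded fully red at these 3 minus lengths by 4.45, 4.53 and 4.63 with ZmUBQ. With 35S it did so by 5.31, 5.42 and 5.64. At 25 nt minus edgeR gave 2.66 with ZmUBQ and 5.84 with 35S. The size of the difference at 26, 27 and 28 nt minus thus depended on the scale. The sets came from 3 ZmUBQ and 6 35S events, and the test was not run with 1 mean per event.

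Events of one group differed as well. In always red 35S plants the plus sum ran from 21.4 and 50.5 RPM in MK034 to 97.1 and 123 RPM in MK016 and 135 RPM in the single library of MK010, while the minus sum stayed between 0.51 and 1.38 RPM in all 11 libraries. In fully green 35S leaves the plus sums were highest in MK040, at 716 and 523 RPM, and its minus shares, 32.2% and 30.4%, were the lowest of the group. In fully red leaves MK040 had plus sums of 53.5 and 44.9 RPM, among the lowest 3 of the group, together with minus shares of 7.78% and 16.4%.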

How the data were processed

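Each deposited file gave, per library, the read counts that the authors assigned to the whole RUBY transgene by length (18 to 28 nt) and strand, and the deposited RPM values, made by the authors as count divided by mapped reads and multiplied by 1000000; 0 lines deviated from this by more than a relative tolerance of 1e-06. The submitters' processing notes name the TAIR10 build. For the aligner, trimming, multiply matching reads and filters, no statement is given in the sources used here. Classes with no line, 10 in 4 files, 7 of them of 25 to 28 nt, were set to 0.

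Groups came from the labels. Values of log2(RPM + 1) were compared by permutation of libraries, two-sided; all arrangements were enumerated (exact test) for groups under 10 libraries, and 100000 resamples drawn for larger ones (smallest p 1e-05), with Benjamini-Hochberg adjustment within each of 4 families: levels, minus strand shares in libraries with at least 20 reads of a length, ratios to 21 nt, and steps between lengths. Sums over the classes carry no test. All 8 classes are named, and 21 and 24 nt serve as comparison. The members and lists were chosen with earlier results of these data known. Alternatives were other pseudocounts, classes under 3 reads set to 0, RUBY reads taken out of the mapped total, ranks, edgeR 4.0.16 on counts (R 4.3.3), 1 mean per event, a replicate block, other read minimums and libraries left out. Of 402 pairs of libraries within groups, 3 were not separated by a chi-squared test of their counts; each joined different events, so all were counted, and averaging them was another alternative. Tests were tried on simulated data. Python 3.11.15, numpy 2.4.6, scipy 1.17.1 and pandas 2.3.3 were used.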

Additional observations from a re-analysis of the deposited data

Results flagged for a closer look

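In dcl1234, MK073 number 3 had 28 nt over 25 nt on the plus strand at 0.803, farther from its nearest neighbour than the 95% limit of Dixon's test allows for 8 libraries. In ZmUBQ fully green leaves, MK054 number 3 had 33.7% of its 25 to 28 nt reads on the minus strand, lowest by the same test for 7 libraries. Such a test flags about 1 in 20 groups by chance, and 25 groups of values were checked. The difference of the colour effect between promoters, ZmUBQ minus 35S in log2, was tested directly and passed in all 8 classes. It was -1.34, -1.31, -1.55 and -1.63 at 25, 26, 27 and 28 nt on the plus strand, and -2.92, -1.92, -2.29 and -2.36 on the minus strand. With 0.1 RPM added, 3 of the 8 passed, and 26, 27 and 28 nt minus differed by less, at -1.42, -1.84 and -1.95. The test was not run with 1 mean per event.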

How the results depend on the processing

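Except with 1 mean per event, most results of a class kept their direction and their side of the threshold. That setting left 83 class results the same, took the call from 85 and turned the sign of 2. With 1 mean per event, 0 classes were called in levels of always green against always red, ZmUBQ fully green against fully red, dcl1234 against Col-0, 35S fully red against always red and ZmUBQ against 35S always red, in strand shares of always green, ZmUBQ green and dcl1234 libraries, and in ratios to 21 nt and steps of the same 3 and of green against red parts. Always green plants came from 1 event, dcl1234 from 2 and ZmUBQ from 3, but 35S fully red and always red plants came from 8 and 6 and leaf parts from 8 each. In always green plants and in ZmUBQ fully green against fully red leaves, these numbers of events allow no p under 0.05 in the exact test. In dcl1234 against Col-0, 2 events against 6 were too few for any call in shares, ratios and steps after adjustment. In levels they left almost no room for one, also in ZmUBQ against 35S always red plants. The cause of the other losses was not tested.

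Ratios to 21 nt called 4 classes, with 0.5 reads added, in fully green against fully red 35S leaves, and 4 in always green against always red plants with 0.5 reads or 0.1 RPM added. With 0.5 reads added, the always green ratios at 26 and 28 nt minus turned to 0.44 and 0.13. Green against red parts gave 8 called ratios with 10 RPM added and without libraries under 8 M, while the uncalled minus ratios at 25, 26, 27 and 28 nt turned to 0.13, 0.19, 0.35 and 0.21 with 0.1 RPM and to 0.15, 0.23, 0.40 and 0.25 with 0.5 reads. The cause was not tested.

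With 10 RPM added, 5 steps were called in fully green against fully red 35S leaves and 2 in green against red parts (also 2 without libraries under 8 M), and the ZmUBQ minus step from 25 to 26 nt, not called at 0.26, turned to -0.23 and was called (adjusted p = 0.0295), whereas 0.1 RPM called it at 1.46 (adjusted p = 0.0042, exact permutation tests). With 0.1 RPM added, 1 step each was called in always green plants and dcl1234, and that minus step turned to 0.065 in leaf parts and 0.24 in always green plants. A minimum of 100 reads left 2 called ZmUBQ strand shares.

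Minus sums, as log2 differences, moved with the pseudocount: to 3.84 in fully green against fully red 35S leaves and 1.45 with ZmUBQ (10 RPM), and, for 0.1 and 10 RPM, to 8.43 and 5.14 in always green plants, 1.79 and 0.35 in dcl1234, and 1.59 and 0.29 in ZmUBQ against 35S always red plants. The promoter difference in colour effect was called in 3 classes with 0.1 RPM added, an alternative chosen after seeing the data, like the 0.5 reads above.

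Uncalled levels near 0 changed sign: 26 and 28 nt plus in ZmUBQ green against red leaves became -0.0049 and -0.015 (0.1 RPM), -0.060 and -0.054 (1 mean per event), and ran from -0.20 to 0.24 and from -0.19 to 0.30 when libraries were left out in turn, while 25 nt plus in red parts against fully red leaves became 0.041 (edgeR) and 0.028 (libraries under 8 M left out). Leaving out each library gave 0 to 1 called classes in ZmUBQ fully red against always red. In always green against always red plants 8 stayed called without any 1 always red library, while a test with 1 always green library allows no call.

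Label numbers were not taken to pair the libraries, since not every set of same-numbered libraries deviated together: the correlation was over 0.1 in 4 of 9, 7 of 13, 10 of 13 and 3 of 7 sets of 35S fully green and fully red leaves, green and red parts, red parts and fully red leaves, and ZmUBQ fully green and fully red leaves. Under a replicate block the called levels numbered 8, 5, 4 and 4 in those 4 comparisons, as without it, 1 ZmUBQ step was called in place of 2 (the plus step from 25 to 26 nt was lost, adjusted p = 0.0568), and the 28 nt plus ratio to 21 nt of leaf parts was lost (adjusted p = 0.0789). The colour effect between promoters was an exception: it was computed over same-numbered sets, the 9 of 35S and 7 of ZmUBQ fully green and fully red leaves given above. Minus classes of red libraries rest on few reads, which limits their precision.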
